A study of Mus musculus with 11 samples.

Results

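The genes of the carnitine shuttle were examined in the gonadal white adipose tissue (WAT) of 11 C57Bl6/J mice. The set was defined by function, with earlier results of these data known, and has 6 members: Slc22a5, Cpt1a, Cpt1b, Slc25a20, Cpt2 and Crat. Of these, 5 were found among the 12787 genes listed, and Cpt1b, the muscle form of the outer membrane enzyme, was not analysed here. The 5 control mice received vehicle on a 60% high fat diet (HFD), and the 6 treated mice ate the same diet with 0.06% w/w iodomethylcholine (HFD + IMC). IMC is a small molecule that inactivates the choline trimethylamine lyase of gut bacteria. All mice were males that carried no engineered allele, and the diets were given for 20 weeks per the study's text, which gives a starting age of 6 weeks for a cohort on the same diets and does not state it for the sequenced mice. The comparison asks how blocking the microbial enzyme changed transcripts of the fat pad of mice on an HFD. The paper reports that IMC limited obesity and lowered fat mass in HFD-fed mice, so the groups may also differ in adiposity. The part of adiposity in the changes was not tested. Expression was measured by RNA sequencing, with 1 library per mouse.

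Long-chain fatty acids cannot cross the inner mitochondrial membrane as acyl-CoA, and the shuttle carries them over as acylcarnitines. Carnitine enters the cell through SLC22A5 (OCTN2), the sodium-dependent plasma membrane carrier. CPT1 on the outer mitochondrial membrane then moves the acyl group from CoA to carnitine, and malonyl-CoA inhibits it, which makes this step the classical control point of fatty acid oxidation. SLC25A20 (CACT) exchanges the acylcarnitine for free carnitine across the inner membrane, and CPT2 hands the acyl group back to CoA in the matrix, where beta-oxidation starts. CRAT acts on short acyl groups and converts acetyl-CoA to acetylcarnitine. White adipocytes store far more fatty acid than they oxidize, and mature adipocytes, macrophages, endothelial cells and mesothelial cells all contribute RNA to the fat pad.

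The transcripts of 4 of the 5 listed members rose with IMC, and those of Cpt1a did not pass the test. Cpt2 was 1.42-fold, Crat 1.31-fold, Slc25a20 1.28-fold and Slc22a5 1.16-fold higher in the HFD + IMC mice, while Cpt1a had a log2 fold change of -0.05. In each of the 4 genes the lowest HFD + IMC mouse lay above the highest HFD mouse. Across all listed genes, limma called 20% higher and 21.0% lower at an adjusted p of 0.05, and 12.5% had every HFD + IMC mouse above every HFD mouse. The median log2 fold change was 0.35 for the 5 members and -0.03 for all genes.

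To show the DNA in front of the control step and of the enzymes after it, the promoter-proximal sequence of Cpt1a, Slc25a20 and Cpt2 is given here from RefSeq (GRCm38.p6), 5′ to 3′ on the strand of the gene. Each run covers 200 bases and ends 50 bases before the transcript start that the promoter table uses. For Cpt1a and Slc22a5 that start lies inside the annotated gene interval, downstream of the gene's annotated first base. Capitals mark AGGTCA in either orientation, the half-site that nuclear receptors such as the PPARs recognise. The Cpt1a sequence lies at chr19:3323051-3323250 (plus strand), that of Slc25a20 at chr9:108661886-108662085 (plus strand) and that of Cpt2 at chr4:107923640-107923839 (minus strand).
Cpt1a: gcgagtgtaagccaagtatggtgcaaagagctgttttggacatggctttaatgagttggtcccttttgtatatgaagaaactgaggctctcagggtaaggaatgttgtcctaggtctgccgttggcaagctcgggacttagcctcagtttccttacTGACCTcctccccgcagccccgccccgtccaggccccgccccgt
Slc25a20: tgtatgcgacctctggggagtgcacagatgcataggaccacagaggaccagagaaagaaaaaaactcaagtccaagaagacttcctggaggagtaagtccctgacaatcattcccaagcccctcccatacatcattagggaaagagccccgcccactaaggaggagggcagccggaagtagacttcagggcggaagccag
Cpt2: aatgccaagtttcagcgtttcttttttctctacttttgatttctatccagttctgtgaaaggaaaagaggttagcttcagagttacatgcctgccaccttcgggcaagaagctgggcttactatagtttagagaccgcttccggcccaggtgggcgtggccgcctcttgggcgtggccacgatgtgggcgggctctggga

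Within 250 bases before these transcript starts, Cpt1a held 1 AGGTCA half-site, read on the opposite strand as TGACCT and ending 89 bases before the start used. Slc25a20, Cpt2 and Slc22a5 held none, and no promoter was given for Crat. Among 32851 promoters of the same length, 14.0% held at least 1 half-site on either strand. None of the 4 promoters held a direct repeat of the half-site with 1 base between the copies, which 0.0335% of promoters held, or the E-box CACGTG, which 6.02% held. The Slc22a5 promoter was the richest in GC of the 4, with 73.6% GC and 30 CG dinucleotides, against 59.6% and 14 for Cpt1a, 56.8% and 13 for Cpt2, and 56.8% and 8 for Slc25a20. The medians over all promoters were 52.4% and 6. Such matches describe letters in a window and not bound sites.

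Slc22a5 (chr11:53864542-53891796), the carnitine importer, had the lowest levels of the set. Its values in the HFD mice, replicates 1 to 5 in order, were 4.79, 4.90, 4.99, 4.91 and 4.81 log2 CPM (counts scaled to a common library size). The HFD + IMC mice ranged from 5.01 to 5.21 with a median of 5.09. The groups did not overlap, but only 0.02 log2 CPM separated the lowest treated mouse from the highest control. The means were 4.88 ± 0.08 (SD, n = 5) and 5.10 ± 0.07 (SD, n = 6), a log2 fold change of 0.22 with an SE of 0.05 and a limma adjusted p of 0.00607. Between 614 and 855 reads per mouse stand behind these values, the fewest of the 5 members.

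Cpt1a (chr19:3322326-3385735) encodes the liver form of CPT1, which is also widely expressed outside the liver. The HFD mice had 8.28, 8.27, 8.35, 8.29 and 8.16 log2 CPM, and the HFD + IMC mice ranged from 8.13 to 8.39 with a median of 8.19. The groups overlapped over most of their range, and the highest and lowest of all 11 values both belonged to treated mice. The means were 8.27 ± 0.07 (SD, n = 5) and 8.22 ± 0.10 (SD, n = 6). The log2 fold change of -0.05 (SE 0.05) had a 95% interval of -0.17 to 0.07 and a limma adjusted p of 0.497, so a rise as large as the estimate for any of the other 4 members lay outside the interval. With 6516 to 8317 reads per mouse, Cpt1a was also the most deeply counted gene of the set.

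Slc25a20 (chr9:108662136-108684642), the inner membrane exchanger, gave 6.12, 6.37, 6.18, 6.17 and 6.33 log2 CPM in the HFD mice and 6.47 to 6.77, with a median of 6.58, in the HFD + IMC mice. The groups were separated by 0.10. The mean moved from 6.23 ± 0.11 (SD, n = 5) to 6.59 ± 0.12 (SD, n = 6), a log2 fold change of 0.35 with an SE of 0.07 and a limma adjusted p of 0.00111.

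Cpt2 (chr4:107903982-107923589), the matrix transferase, had the largest fold change of the 5. The HFD mice had 6.28, 6.57, 6.30, 6.44 and 6.55 log2 CPM, and the HFD + IMC mice ranged from 6.78 to 7.17 with a median of 6.92. A gap of 0.21 lay between the groups, the widest of the set. The mean moved from 6.43 ± 0.13 (SD, n = 5) to 6.94 ± 0.15 (SD, n = 6), a log2 fold change of 0.51 (SE 0.08, 95% interval 0.34 to 0.68) with a limma adjusted p of 0.000356.

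Crat (chr2:30400476-30416017), the acetyl group transferase, had 7.70, 7.88, 7.82, 7.86 and 8.03 log2 CPM in the HFD mice and 8.14 to 8.31, with a median of 8.26, in the HFD + IMC mice. The treated mice lay close together, and 0.11 separated them from the highest control, replicate 5. The mean moved from 7.86 ± 0.12 (SD, n = 5) to 8.25 ± 0.06 (SD, n = 6), a log2 fold change of 0.39 with an SE of 0.06 and a limma adjusted p of 0.000226, the smallest of the members. The annotated interval of Crat touches that of Dolpp1, which was 0.12 higher on the log2 scale without passing (adjusted p = 0.113).

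**Figure D1:**
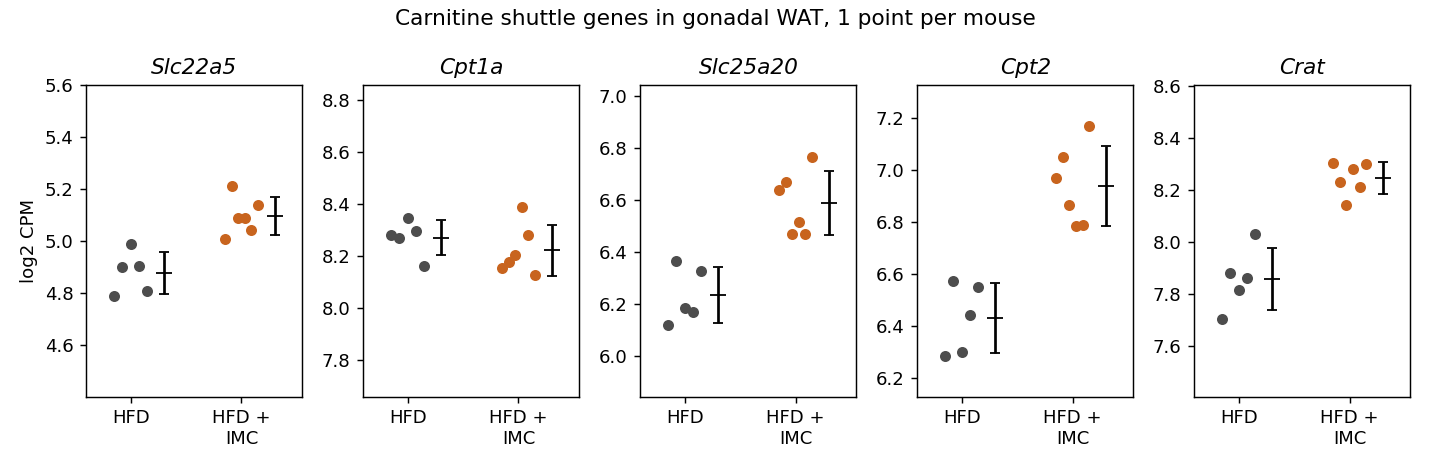
Level of each listed shuttle gene in every mouse (points), in log2 CPM, for 5 HFD and 6 HFD + IMC mice, in the order of the steps of the shuttle, with the mean and SD of each group beside the points. Each panel spans the same log2 range. The groups are apart in Slc22a5, Slc25a20, Cpt2 and Crat and overlap in Cpt1a.

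In exact permutation tests over the 462 splits of the mice, two-sided, Slc22a5, Slc25a20, Cpt2 and Crat each gave p = 0.00216, the smallest this design allows, and Cpt1a gave p = 0.368. Ranked by the limma p among the 12787 genes, Crat stood at 618, Cpt2 at 777, Slc25a20 at 1397, Slc22a5 at 2727 and Cpt1a at 9863. The 4 calls and the missing call of Cpt1a were the same in 7 other settings of the model or scaling and after leaving out each of the 11 mice.

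Per kilobase of annotated exon, Cpt1a was the most abundant of the 5 listed members in control fat. Cpt1b was not analysed here, so the outer membrane step as a whole was not measured. In HFD mice the mean levels were 6.16 log2 CPM per kb for Cpt1a, 5.67 for Crat, 5.40 for Slc25a20, 5.18 for Cpt2 and 3.26 for Slc22a5. Cpt1a lay above every other member without overlap, whereas Crat and Slc25a20 overlapped each other, as did Slc25a20 and Cpt2. In HFD + IMC mice the mean levels were 6.11 for Cpt1a, 6.06 for Crat, 5.75 for Slc25a20, 5.69 for Cpt2 and 3.48 for Slc22a5, and the ranges of Cpt1a and Crat then overlapped. These levels rest on the union of annotated exons of each gene, which may be longer than the transcripts made in fat.

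The balance between Cpt1a and the other members, measured within each mouse, differed between the groups. A difference between 2 genes of the same mouse does not depend on how the library is scaled, and all 10 pairs of the 5 members were compared, a comparison added after the members' values had been seen. Crat lay below Cpt1a in all 5 HFD mice, with differences of -0.58, -0.39, -0.53, -0.43 and -0.13 log2 CPM, and between -0.11 and 0.17 in the HFD + IMC mice. The mean difference was -0.41 ± 0.17 (SD, n = 5) in HFD and 0.02 ± 0.12 (SD, n = 6) in HFD + IMC. This shift of 0.44 had an exact permutation p of 0.00216 and an adjusted p of 0.0144 over the 10 pairs.

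Cpt2 minus Cpt1a moved from -1.84 ± 0.19 (SD, n = 5) to -1.28 ± 0.24 (SD, n = 6), a shift of 0.56. Slc25a20 minus Cpt1a shifted by 0.40, with a small overlap of the groups, and Slc22a5 minus Cpt1a by 0.27. Each of the 4 pairs with Cpt1a had an adjusted exact permutation p of 0.0144 and kept its call without any single mouse.

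**Figure D2:**
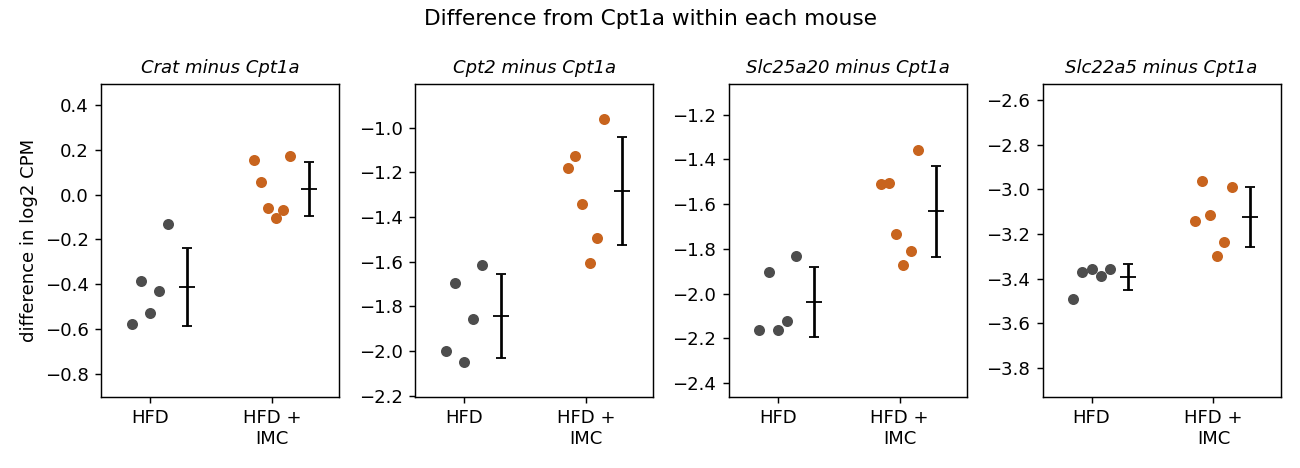
Difference in log2 CPM between each of 4 shuttle genes and Cpt1a in the same mouse (points), with the mean and SD of each group, for 5 HFD and 6 HFD + IMC mice. The treated mice lie higher in each panel, and the groups overlap slightly for Slc25a20 alone.

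Among the 4 members that rose, 2 of the 6 pairs differed in the size of their change. Cpt2 rose more than Slc25a20, by 0.15 on the log2 scale, and more than Slc22a5, by 0.29, each with an adjusted exact permutation p of 0.0144. Cpt2 minus Crat shifted by 0.12 (adjusted exact permutation p = 0.142), Slc25a20 minus Slc22a5 by 0.14 (p = 0.124), Crat minus Slc22a5 by 0.17 (p = 0.0804) and Crat minus Slc25a20 by 0.03 (p = 0.545), which did not pass. The shift of Crat minus Slc22a5 passed without HFD replicate 5, at 0.23 with an adjusted exact permutation p of 0.0136.

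Within the groups, Cpt2, Slc25a20 and Crat varied together from mouse to mouse. After centring each gene on its group mean, Pearson's r over the 11 mice was 0.94 for Cpt2 with Slc25a20, 0.67 for Slc25a20 with Crat and 0.59 for Cpt2 with Crat. Cpt1a ran the other way, with r of -0.77 against Cpt2, -0.65 against Slc25a20 and -0.37 against Crat. HFD + IMC replicate 6 showed this plainly, with the highest Cpt2 (7.17) and Slc25a20 (6.77) and the lowest Cpt1a (8.13) of all mice. HFD + IMC replicate 4 had the highest Cpt1a (8.39) and the lowest Cpt2 (6.78) of the treated group. For Slc22a5, r with the other 4 members lay between -0.09 and 0.23. These coefficients are descriptions, because genes of the same library share its depth, its scaling and its mixture of cells.

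Each member was also matched to the genes that varied most like it after the same centring. For Cpt2 these were Atp5b, a subunit of the mitochondrial ATP synthase (r = 0.97, Spearman's rho 0.95), Cers4, a ceramide synthase (r = 0.97, rho 0.94), and Bckdha, of branched-chain amino acid breakdown (r = 0.97, rho 0.99). For Slc25a20 they were Mb21d2 (r = 0.98, rho 0.94), Cers4 again (r = 0.96, rho 0.88) and Hadh, a dehydrogenase of beta-oxidation (r = 0.96, rho 0.85). Crat was nearest to Dmpk, a protein kinase (r = 0.96, rho 0.95), Myo19, a mitochondrial myosin (r = 0.95, rho 0.93), and BC024978 (r = 0.94, rho 0.88). Cpt1a was nearest to Gna12, a G protein subunit (r = 0.96, rho 0.96), Nub1 (r = 0.95, rho 0.95) and Aasdh (r = 0.94, rho 0.88), and limma called none of these 3 changed. Slc22a5 was nearest to Drosha, the nuclear enzyme of microRNA processing (r = 0.91, rho 0.88), Zfp532 (r = 0.90, rho 0.91) and Anks6 (r = 0.89, rho 0.89). The coefficients cover 11 mice and were the highest of all listed genes, so they were selected to be high.

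Mitochondrial beta-oxidation was represented by 15 genes, chosen with earlier results of these data known, and including electron carriers such as Etfdh. All 15 were called higher, 13 of them without overlap between the groups, with a median log2 fold change of 0.39. Etfdh, which passes electrons from beta-oxidation to ubiquinone, rose by 0.53 (SE 0.06, limma adjusted p = 6.59e-05). Acadm, the medium-chain acyl-CoA dehydrogenase, rose by 0.59 (SE 0.07, adjusted p = 7.42e-05), and Decr1, which prepares unsaturated fatty acids for the pathway, by 0.61 (SE 0.08, adjusted p = 9.72e-05). Hadha, a subunit of the trifunctional protein, had the smallest rise, 0.13 (SE 0.04, adjusted p = 0.0330). The call of Hadha was lost under total-count scaling and without HFD replicates 1, 2 or 5 or HFD + IMC replicates 2, 3 or 4, and that of Etfb without HFD replicates 1, 3 or 4, so 13 to 15 of the list were called when a mouse was left out.

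**Figure D3:**
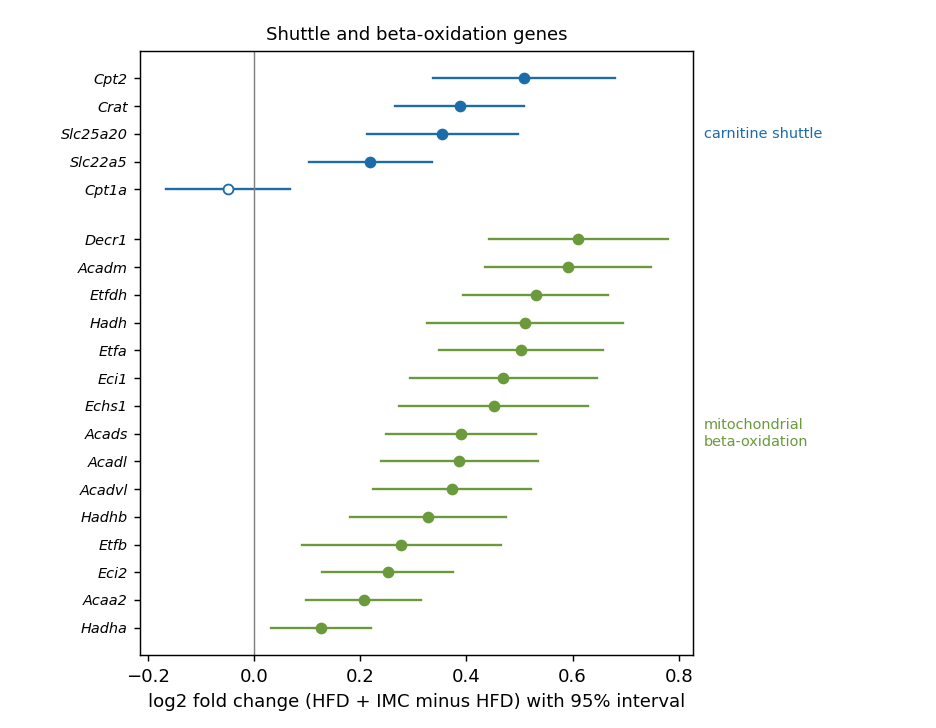
Log2 fold change, HFD + IMC minus HFD, with its 95% interval from limma, for the 5 listed shuttle genes and 15 chosen genes of mitochondrial beta-oxidation. Filled points have an adjusted p below 0.05 over all genes. Cpt1a is the only open point, at -0.05.

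Each member was then set against the mean log2 CPM of these 15 genes in the same mouse. The 15 genes, chosen with earlier results known, themselves rose with a median log2 fold change of 0.39. That rise enters every one of these differences, so a lower difference shows no fall in a member's own level. Cpt1a itself had a log2 fold change of -0.05. Cpt1a minus the mean of the 15 genes fell from 1.22 ± 0.15 (SD, n = 5) to 0.77 ± 0.18 (SD, n = 6). This change of -0.45 in the difference had an adjusted exact permutation p of 0.0216 over the 5 members. The change was 0.11 for Cpt2 and -0.18 for Slc22a5, each with an adjusted exact permutation p of 0.0433. These last calls were not stable. The Cpt2 call was lost in 8 of 11 repeats without 1 mouse, all but those without HFD replicates 2 and 5 and HFD + IMC replicate 4, and the Slc22a5 call in 9 of 11, all but those without HFD replicates 2 and 5. The change was -0.05 for Slc25a20 (adjusted exact permutation p = 0.181) and -0.01 for Crat (p = 0.751), which did not pass.

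**Figure D4:**
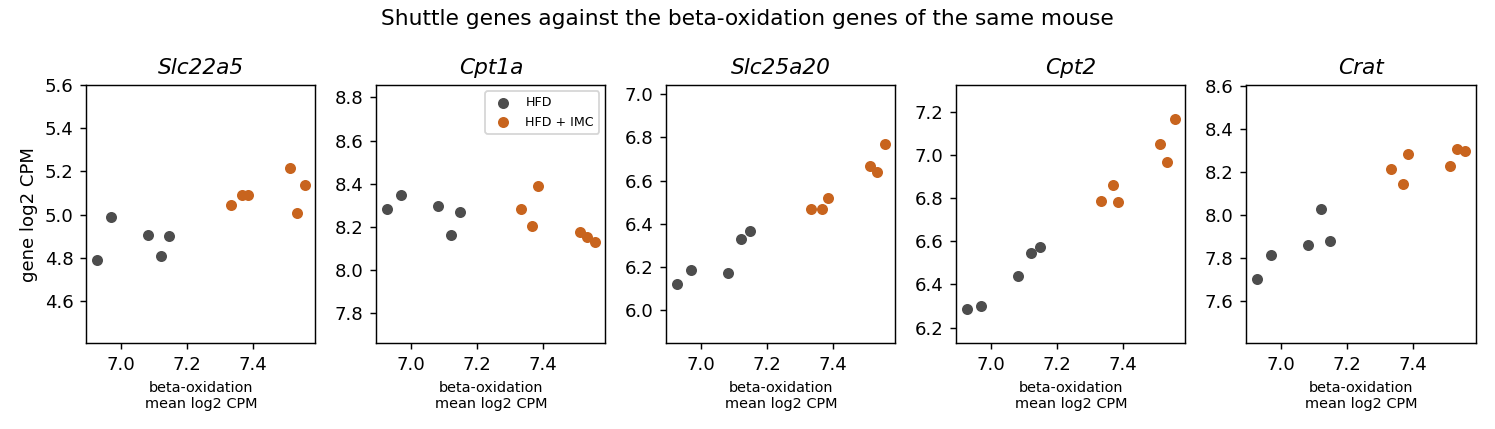
Level of each listed shuttle gene (vertical axis, log2 CPM) against the mean log2 CPM of 15 beta-oxidation genes in the same mouse (horizontal axis), 1 point per mouse, for 5 HFD and 6 HFD + IMC mice. Cpt2 and Slc25a20 climb with the oxidation genes within and between the groups, and Cpt1a does not.

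Genes around the shuttle gave a mixed picture. Of the 9 genes for carnitine synthesis and other carnitine transport, 5 were listed. Slc22a4, the sister carrier of Slc22a5 that prefers ergothioneine, rose by 0.46 (SE 0.07, limma adjusted p = 0.000300), more than Slc22a5 itself. Aldh9a1, which makes the carnitine precursor gamma-butyrobetaine, fell by 0.18 on the log2 scale (SE 0.06, adjusted p = 0.0386). Shmt1, Slc16a9 and Slc22a21 were not called. The synthesis enzymes Tmlhe and Bbox1 were not analysed here.

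Among the other carnitine acyltransferases, Cpt1c, the brain form of CPT1, fell by 0.34 on the log2 scale (SE 0.12, limma adjusted p = 0.0298), with 188 to 339 reads per mouse. Crot, the peroxisomal octanoyltransferase, had 0.05 (SE 0.05, adjusted p = 0.388). The lower calls of both lists were each lost in 6 of 11 repeats without 1 mouse. That of Aldh9a1 went without HFD replicates 3, 4 or 5 or HFD + IMC replicates 2, 3 or 6, and also without the variance trend and under median-of-ratios scaling. That of Cpt1c went without HFD replicates 3, 4 or 5 or HFD + IMC replicates 1, 3 or 4.

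Acyl-CoA synthetases activate fatty acids before the shuttle, and 1 of the 4 listed, Acsl1, the main form of adipocytes, rose. Its log2 fold change was 0.91 (SE 0.11, limma adjusted p = 8.60e-05), larger than that of any shuttle gene. Acsl3 and Acsl4 were not called, and Acsl5 had -0.16 (SE 0.06, adjusted p = 0.0509), which passed under total-count scaling and without HFD replicates 2 or 5 or HFD + IMC replicate 3.

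The genes that set or answer malonyl-CoA, the inhibitor of CPT1, had 5 of 10 members higher and none lower, with a median log2 fold change of 0.15. Acaca, the acetyl-CoA carboxylase of fatty acid synthesis, rose by 0.57 (SE 0.10, limma adjusted p = 0.000590), and Acacb, the form at the mitochondrial surface, by 0.45 (SE 0.14, adjusted p = 0.0228). Of the subunits of AMP-activated protein kinase, which inhibits both carboxylases, Prkaa2 rose by 0.85 (SE 0.13, adjusted p = 0.000398), Prkag3 by 0.86 (SE 0.18, adjusted p = 0.00210) and Prkag2 by 0.23 (SE 0.05, adjusted p = 0.00297). Prkaa2 and Prkag3, forms best known from skeletal muscle, were low, with 126 to 403 and 59 to 207 reads per mouse. Mlycd, which degrades malonyl-CoA, had 0.06 (SE 0.05, adjusted p = 0.328).

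Among 6 listed transcriptional regulators of fatty acid oxidation, 3 rose, with a median of 0.31 for the 6. Ppara, the receptor best known for inducing oxidation genes in liver, rose by 0.99 (SE 0.19, limma adjusted p = 0.00142) from a low level, 99 to 355 reads per mouse. Pparg, the master regulator of adipocytes, rose by 0.70 (SE 0.11, adjusted p = 0.000292), and Rxra, their shared partner, by 0.35 (SE 0.06, adjusted p = 0.000773). Ppard, Ppargc1b and Esrra were not called, and Ppargc1a was not analysed here.

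Of the 6 PPAR targets outside the shuttle reported here, 3 rose and none was called lower, with a median of 0.33. Ucp3, an uncoupling protein best known from muscle and brown fat, rose by 0.87 (SE 0.11, limma adjusted p = 0.000110), Angptl4, an inhibitor of lipoprotein lipase, by 0.33 (SE 0.06, adjusted p = 0.00164) and Ehhadh by 0.61 (SE 0.14, adjusted p = 0.00324). Pdk4 (0.32, adjusted p = 0.0940) and Acot2 (0.21, adjusted p = 0.0917) did not pass. Plin2, a lipid droplet coat protein, had -0.24 (adjusted p = 0.0539). Plin2 passed as lower in 4 of the 7 other settings, those without the variance trend, with the robust fit, with total-count scaling and with voom, and without HFD replicate 5 or HFD + IMC replicate 4. Pdk4 passed without HFD replicate 2 and Acot2 without HFD + IMC replicate 3.

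**Figure D5:**
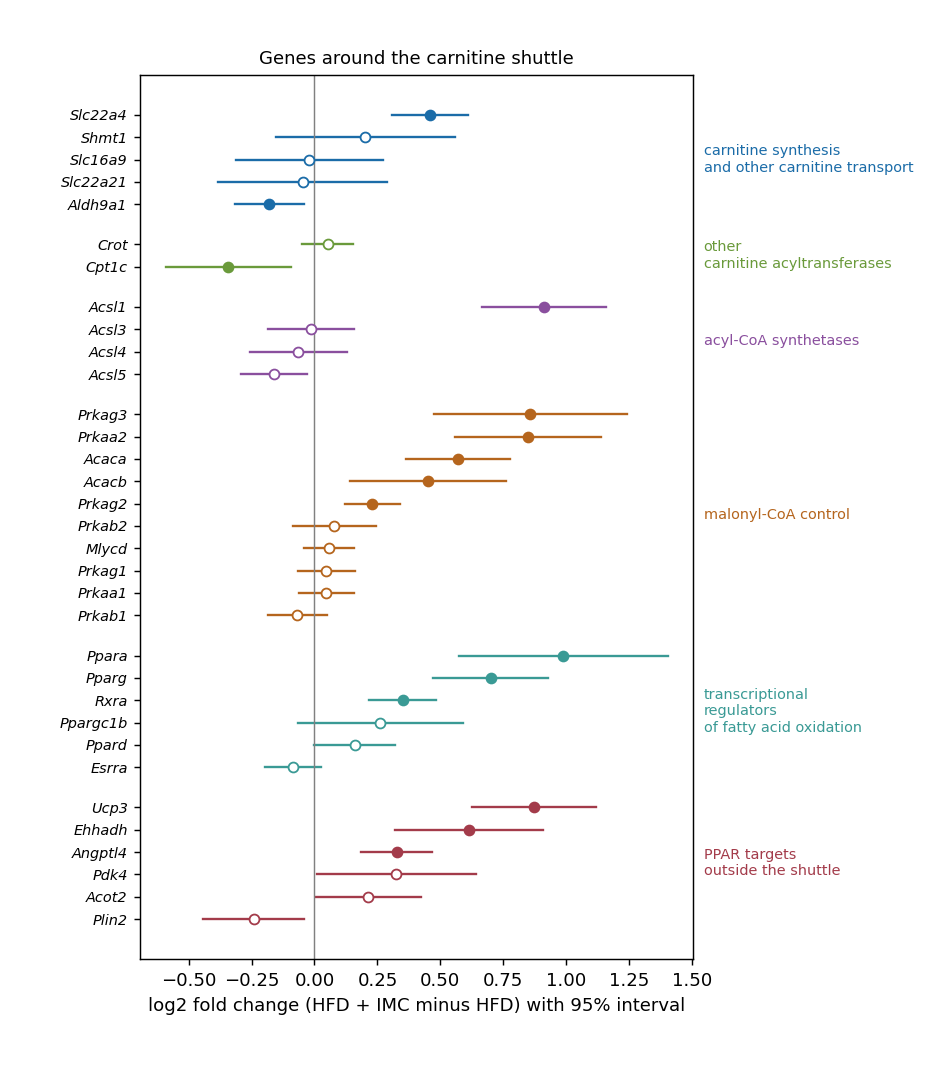
Log2 fold change, HFD + IMC minus HFD, with its 95% interval from limma, for the listed genes of 6 pathway lists around the shuttle. Filled points have an adjusted p below 0.05 over all genes. Acsl1, Ppara, Prkag3, Prkaa2 and Ucp3 lie furthest to the right, between 0.85 and 0.99, and Cpt1c and Aldh9a1 are the filled points below 0.

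Transcripts of cell type markers differed between the groups, and the part of the cell mixture in the changes of the shuttle genes was not tested. In bulk tissue, fewer cells of a type and less RNA per cell cannot be told apart. All 8 adipocyte markers were called higher with IMC, and their summed level moved from 9625 to 13720 CPM in HFD to 18914 to 23031 CPM in HFD + IMC. Of 8 macrophage markers 7 were called lower, from a sum of 7264 to 9785 CPM to a sum of 4203 to 6698 CPM. Of 12 skeletal muscle markers 5 were listed, and 4 of them (Acta1, Myh2, Ldb3 and Trdn) were called higher, with sums of at most 29.0 CPM in HFD and of 72.3 to 104 CPM in HFD + IMC. Tnni2 was not called (log2 fold change -0.27, limma adjusted p = 0.343). Myh2 had at most -0.64 log2 CPM in HFD and at least 1.38 in HFD + IMC. It could pass the authors' low-count filter only through the treated mice, so its call carries the effect of that filter. The defining muscle genes Ckm, Myh1 and Myh4 had no listed value. Of 6 brown or beige adipocyte markers 5 were listed, without Ucp1, and 2 were called higher (Cidea and Cox8b), with sums of 14.2 to 20.1 CPM in HFD and 18.3 to 26.6 CPM in HFD + IMC. Cox7a1, Elovl3 and Dio2 were not called, and Dio2 had a log2 fold change of -0.35 (limma adjusted p = 0.178). The groups overlapped in all 5 of these markers, and Cidea had 25 to 165 reads per mouse. None of the 7 markers of epididymis and male germ cells was listed.

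Relative to the mean log2 CPM of the 8 adipocyte markers in the same mouse, every listed shuttle gene was lower with IMC. The change in this difference was -0.93 for Cpt1a, -0.66 for Slc22a5, -0.52 for Slc25a20 and -0.37 for Cpt2, each with an adjusted exact permutation p of 0.00271 over the 5 members, and -0.49 for Crat (adjusted exact permutation p = 0.00433). The adipocyte markers themselves rose, with a median log2 fold change of 0.85, and the members that rose did so by less. These tests therefore show no fall in a member's own level. Relative to the mean of the 8 macrophage markers, every member was higher, by 1.06 for Cpt2, 0.94 for Crat, 0.91 for Slc25a20, 0.77 for Slc22a5 and 0.50 for Cpt1a, each with an adjusted exact permutation p of 0.00216. The macrophage markers themselves fell, with a median log2 fold change of -0.59, and that fall enters every one of these differences. Because of that fall, this comparison cannot show that a member rose, and it was also added after values had been seen. Within the groups, the macrophage mean ran opposite to Cpt2 (r = -0.97 over 11 mice, centred) and Slc25a20 (r = -0.96) and alongside Cpt1a (r = 0.75). The coefficient was -0.58 for Crat and -0.24 for Slc22a5. With the adipocyte mean, r was 0.86 for Cpt2, 0.83 for Slc25a20, 0.73 for Crat, -0.73 for Cpt1a and -0.03 for Slc22a5. With the beta-oxidation mean, r was 0.94, 0.92, 0.71, -0.67 and 0.17 in the same order. The pattern was thus not particular to the macrophage markers. The mouse with the lowest macrophage mean, HFD + IMC replicate 6 (8.48 log2 CPM), was the same mouse that had the highest Cpt2 and Slc25a20 and the lowest Cpt1a. It also had the highest beta-oxidation mean (7.56 log2 CPM). Its adipocyte mean of 10.76 was below only that of HFD + IMC replicate 1 (10.79). What links these values was not tested.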

How the data were processed

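RNA sequencing of gonadal WAT was analysed from 5 HFD and 6 HFD + IMC mice, grouped by their sample labels. The authors trimmed reads with Trim Galore, checked them with FastQC, aligned them with STAR to mm10, removed low-count transcripts and scaled libraries by the upper quartile in edgeR. The authors deposited log2 CPM values for 12787 genes. The table also holds the authors' own comparison (log2 fold change, mean level, likelihood-ratio score, p-value and FDR), which was not used. The authors calculated that score and the p-value with edgeR before they deposited the table. Use of strand in counting is not given in the sources used here.

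limma 3.58.1 in R 4.3.3 (trend) was fitted over all genes with the group as the factor and Benjamini-Hochberg adjustment over all of them, at 0.05. For single values per mouse, the difference in means was tested by exact permutation (two-sided, 462 splits). Equal steps of CPM within each mouse gave whole reads, to within 0.1 read, for 100% of values, 22320022 to 25155366 per mouse, so 1 read was worth 0.0403 to 0.0450 CPM. Reads are not independent molecules, so depth covers counting error only. Nothing in the labels links mice across groups. Scripts were tested on simulated data.

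The members and gene lists were chosen with earlier results of these data known. Named genes were the members, genes of the lists (in lists over 9 genes, the 3 with the smallest p and any against the majority, with some others added here), neighbouring genes, and the 3 genes most correlated with each member. Some genes of the list of PPAR targets are not reported here. Exon lengths came from GENCODE vM21 and positions and promoters from RefSeq GRCm38.p6. Cpt1b was not analysed here, so its planned comparison with Cpt1a was not run. The differences between pairs of members and those from macrophage markers were added after values had been seen. Alternatives were the variance trend, robust fit, low-value filter, added constant, scaling, voom on the recovered reads, median scores and leaving out each mouse.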

Additional observations from a re-analysis of the deposited data

Results flagged for a closer look

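Of 60 sets of values checked (1 measure in 1 group), 2 held a mouse that stood apart from its group by Dixon's criterion, which chance reaches in a small share of groups. In HFD replicate 1, Slc22a5 minus Cpt1a was -3.49 log2 CPM, while the nearest HFD mouse had -3.39. In HFD replicate 4, Slc25a20 minus the mean of the beta-oxidation genes was -0.91, while the nearest HFD mouse had -0.81.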

How the results depend on the processing

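The log2 fold changes of the 5 members kept their direction and their call in all 7 alternatives and without any single mouse. Over both kinds of repeat, Cpt2 ranged from 0.46 to 0.54, Crat from 0.35 to 0.43, Slc25a20 from 0.32 to 0.39, Slc22a5 from 0.19 to 0.25 and Cpt1a from -0.08 to -0.03. Total-count scaling moved the median of all genes from -0.03 to -0.06, and median-of-ratios scaling to -0.02.

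The differences from the beta-oxidation mean were less stable. With the median of the 15 genes in place of their mean, Slc25a20 turned to 0.0039 and Crat to 0.036, and Slc22a5 no longer passed at -0.13 (adjusted exact permutation p = 0.216). Without HFD replicate 5 the Crat difference turned to 0.012, and without HFD + IMC replicate 2 to 0.0027, within a range of -0.033 to 0.012 over all mice left out. The Cpt2 difference ranged from 0.084 to 0.126 without single mice (adjusted exact permutation p 0.0198 to 0.119) and that of Slc22a5 from -0.22 to -0.13 (p 0.0238 to 0.119). Fewer mice leave fewer splits in these tests. Crat minus Slc22a5 ranged from 0.13 to 0.23. No other list gained or lost more than 1 lower call in any setting, the PPAR targets gained 1 higher call without HFD replicate 2 and without HFD + IMC replicate 3, and the beta-oxidation list kept 13 to 15 higher calls. The cause of these changes was not tested.

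No paired analysis was possible because the labels give no number that mice of both groups share. Values for Cpt1b could not be had, and its alternatives were not run. The 5 listed members had at least 614 reads in every mouse, and whether depth limited their tests was not examined.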

Other observations

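Genes next to the members gave no common pattern. Prkar2a, a regulatory subunit of protein kinase A that lies 7501 bases from Slc25a20, rose by 0.22 on the log2 scale (SE 0.04, limma adjusted p = 0.00134), while Arih2 on the other side of Slc25a20 had 0.07 (adjusted p = 0.208). Mrpl21, beside Cpt1a, had -0.08 (adjusted p = 0.410), and Chkb, 487 bases from Cpt1b, had -0.37 (adjusted p = 0.113).

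Among markers of the remaining cell types of the fat pad, Cdh5 of endothelium rose by 0.41 (SE 0.10, limma adjusted p = 0.00510) and the other 3 endothelial markers were not called. Wt1 of mesothelium had -0.57 (SE 0.16, limma adjusted p = 0.0141), and the other 2 listed mesothelial markers were not called.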
